A study of Mus musculus with 6 samples.

Results

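GLUT4, encoded by Slc2a4, is the glucose transporter that muscle cells hold inside the cell and move to the surface when insulin or contraction calls for glucose uptake. Its mRNA and that of 9 genes around it were examined in the transcriptome of C2C12, a line of mouse skeletal muscle cells. The 10 genes were found in the table by their gene names: Slc2a4 and the basal glucose transporter Slc2a1 (GLUT1), Rhoq and Trip10, Tbc1d1, Tbc1d4 and Rab10, Vamp2 and Stx4a, and Lnpep. They are 10 of 55450 genes in the table.

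In resting muscle cells, most GLUT4 sits in storage vesicles that also carry the aminopeptidase IRAP, the product of Lnpep. Insulin acts through AKT, which switches off the GTPase-activating proteins TBC1D1 and TBC1D4 (AS160) and so frees Rab proteins of the vesicle, while a separate branch described in cultured fat cells runs through the small GTPase TC10 (Rhoq) and its partner CIP4 (Trip10). The vesicle then fuses with the plasma membrane when the vesicle SNARE VAMP2 joins the membrane SNARE syntaxin 4 (Stx4a), whereas GLUT1 sits largely at the surface and serves basal uptake.

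The study asked what loss of the fatty acid receptor CD36 does in muscle cells. Cells were transfected with small interfering RNA against Cd36 (siCD36) in 3 samples and with control RNA (siCont) in 3 samples, each at 20 nM for 72 h. The labels call the cells myoblasts of strain C57BL/6 and the study's methods call them myotubes, and the source does not say which of the Cd36 duplexes a sample received. The treatment text that the samples share speaks of palmitate for a flow cytometry assay, while the study describes the RNA-seq for cells without palmitate. The legend of the study's figure with the RNA-seq pathway result speaks of 3 independent experiments for its values. It does not say whether this covers the RNA-seq samples. No source names separate cultures for the 6 samples, so the p-values cover the variation among these libraries alone, and that variation may be technical.

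The libraries held 67048354, 68690002 and 71878709 counts with siCD36 and 60566530, 60388171 and 56907806 counts with siCont. Cd36 had 38, 32 and 30 counts in the siCD36 samples, against 1010, 1129 and 1103 counts in the siCont samples, which put every sample on the side of its label. FPKM is a level scaled to gene length and library depth, and genes whose mean reached 1 FPKM were tested, 11796 in all. Of these, 260 rose and 361 fell in the siCD36 samples in edgeR's quasi-likelihood test with a threshold of 0.05 on the adjusted p, 5.26% of the genes tested, and 2993 (25.4%) had an unadjusted p under 0.05. Of 26 muscle differentiation genes, 26 were tested, 4 fell (Myh3, Myh7, Casq2 and Cav3) and none rose (1 higher and 11 lower at an unadjusted p under 0.05), and their summed level was 12106 to 15612 FPKM with siCD36, against 14556 to 18173 FPKM with siCont. Of 10 myoblast and cell cycle genes, 6 were tested and 3 rose (Myf5, Ccna2 and Mcm5), with a summed level of 23.3 to 25.6 FPKM with siCD36, against 12.8 to 15.5 FPKM with siCont. Ccna2 and Mcm5 averaged 0.980 and 0.807 FPKM with siCont, so they reached the minimum of 1 FPKM only through the siCD36 samples. The part of these muscle and cell cycle differences in the results on glucose transport genes was not tested, and in bulk samples fewer cells of a type and less RNA per cell cannot be told apart. Of the adipocyte genes, Plin1, Cidec, Retn, Lep and Cfd had no counts in any library, and the adipocyte, leukocyte and neuron lists had no gene above the level that was tested. Of 6 endothelial genes, 1 was tested (Tek, which rose), with a summed level of 2.86 to 3.95 FPKM with siCD36, against 1.34 to 1.81 FPKM with siCont, and Emcn had no counts. Of 6 fibroblast genes, 4 were tested and none was called, with 669 to 691 FPKM in sum with siCD36, against 598 to 735 FPKM with siCont.

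Slc2a4 had the largest difference of the 10 genes. It lies on chromosome 11 at 69942539 to 69948175, on the minus strand (ENSMUSG00000018566, mouse build GRCm38), and overlaps no other gene of the table. Its levels were 0.497, 0.253 and 0.200 FPKM in the siCD36 samples, against 2.12, 1.98 and 1.77 FPKM in the siCont samples. All siCD36 samples lay below all siCont samples, and siCD36 sample 1 was the highest of its group. The underlying raw counts were 131, 69 and 56 with siCD36, against 505, 469 and 397 with siCont. The mean level with siCD36 was 0.317 ± 0.158 FPKM, against 1.96 ± 0.175 FPKM with siCont (SD, n = 3 each), so that 16.2% of the siCont level was measured with siCD36. Slc2a4 fell to a 6.28-fold lower level, a log2 fold change of -2.65 (95% interval -3.54 to -1.76, standard error 0.372), with an adjusted p of 0.0223 in edgeR. Its mean over the 6 samples was 1.14 FPKM, so it passed the minimum of 1 FPKM only through the siCont samples. With edgeR's own count filter instead, its log2 fold change was -2.66 (adjusted p = 0.0238 in edgeR). The exact permutation test on its 6 values gave p = 0.1, 2-sided, the smallest p that 3 against 3 samples allow. The call was lost when any one library other than siCD36 sample 1 was left out, with adjusted p-values of 0.0519 to 0.103 in edgeR, and the log2 change stayed between -3.15 and -2.40 over all 6 such fits.

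Slc2a4 also varied more among the siCD36 samples than most genes did. The SD of its log2 level was 0.711 with siCD36, against 0.178 with siCont, and the median over all genes tested was 0.144 with siCD36 and 0.123 with siCont. Without siCD36 sample 1, the SD of the remaining 2 siCD36 samples was 0.260, beside a median of 0.0811 over all genes tested. Leaving out the most distant value lowers an SD in any case, and Slc2a4 still varied more than that median. The 56 to 131 raw counts per siCD36 library limit the precision of this spread, and counts this low raise the SD of a log2 level by counting error alone. The part of counting error in the difference from the medians was not tested.

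Slc2a1, which encodes the transporter for basal glucose uptake, did not follow Slc2a4. It lies on chromosome 4 at 119108711 to 119137983, on the plus strand (ENSMUSG00000028645). Its levels were 17.0, 13.5 and 11.8 FPKM in the siCD36 samples, against 13.1, 12.6 and 13.6 FPKM in the siCont samples. The groups overlapped, with siCD36 samples both at the top and at the bottom. The mean was 14.1 ± 2.67 FPKM with siCD36 and 13.1 ± 0.521 FPKM with siCont (SD, n = 3 each), and the log2 fold change was 0.07 with a 95% interval of -0.29 to 0.44 (adjusted p = 0.799 in edgeR). The interval spans a level 0.817 to 1.36 times that of siCont, so that a moderate difference either way could not be seen. Without siCD36 sample 1 the log2 fold change of Slc2a1 was -0.10 (adjusted p = 0.489).

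**Figure D1:**
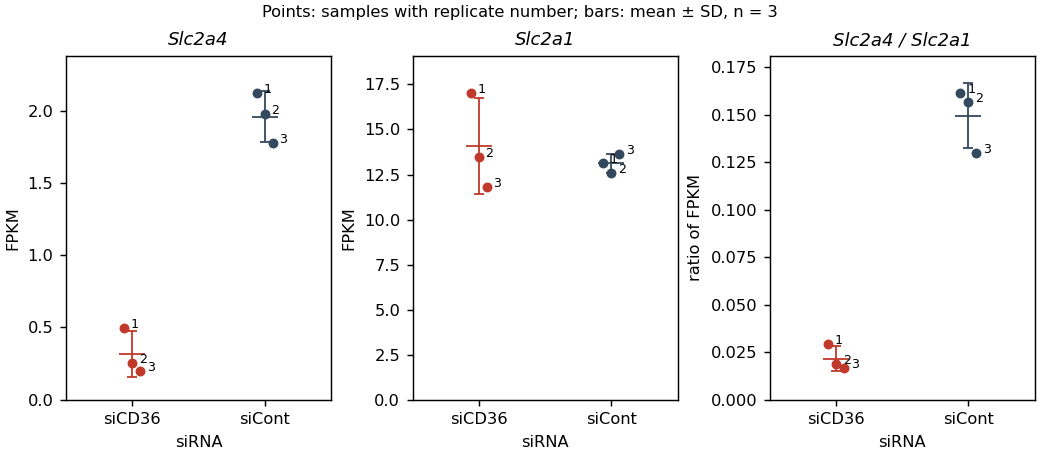
Levels of Slc2a4 and Slc2a1 in FPKM and their ratio in each sample (points, with replicate numbers) with the mean and SD of 3 samples (bars). The siCD36 samples lie below all siCont samples for Slc2a4 and for the ratio, and both groups overlap for Slc2a1.

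The ratio of the 2 transporters separated the groups. Slc2a4 stood at 0.0292, 0.0188 and 0.0170 of the FPKM of Slc2a1 in the siCD36 samples, against 0.162, 0.157 and 0.130 in the siCont samples. Put the other way round, the cells held 34.2, 53.2 and 59.0 FPKM of Slc2a1 for each FPKM of Slc2a4 with siCD36, against 6.19, 6.37 and 7.69 with siCont. The ratios of the groups did not overlap, and the log2 ratio was lower by 2.82 with siCD36, a 7.07-fold difference (exact permutation test, 2-sided, p = 0.1, the smallest possible). Exact permutation tests of 6 such ratios between the genes each gave p = 0.1, which is also their Benjamini-Hochberg adjusted value.

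Slc2a1 made up most of the facilitative sugar transporter mRNA in both groups. Of the summed FPKM of 12 transporters of the family, Slc2a1 held 76.8, 71.7 and 72.0% with siCD36, against 59.9, 60.1 and 61.4% with siCont. Slc2a4 held 2.24, 1.35 and 1.22% with siCD36, against 9.68, 9.43 and 7.99% with siCont. Both shares separated the groups, while the FPKM of Slc2a1 itself overlapped between them. Slc2a6, a transporter of lysosomal membranes, had 1.83 FPKM with siCD36 and 3.00 FPKM with siCont on average (log2 fold change -0.74, adjusted p = 0.115), and Slc2a8, an intracellular transporter, had 1.55 FPKM with siCD36 and 2.32 FPKM with siCont (log2 fold change -0.61, adjusted p = 0.238). The values of both were lower in all siCD36 samples, but neither passed the test in edgeR. Slc2a8 had 0.921, 2.17 and 1.57 FPKM with siCD36, against 2.23, 2.32 and 2.40 FPKM with siCont, so that siCD36 sample 2 lay close to siCont. Slc2a2, Slc2a7 and Slc2a12, the last of these a transporter also reported to respond to insulin, had no counts in any library.

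**Figure D2:**
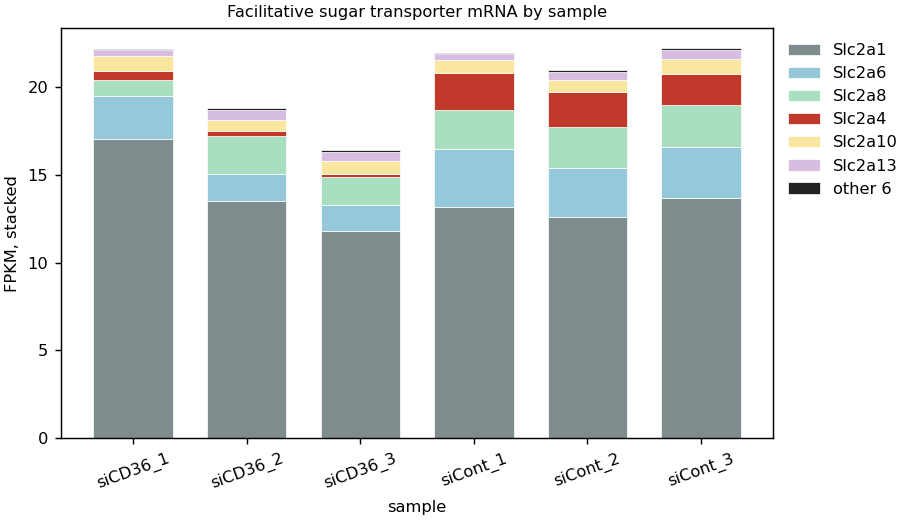
Stacked levels in FPKM of the facilitative sugar transporters in each sample, the 3 siCD36 samples left and the 3 siCont samples right. The Slc2a4 segment is 1.22 to 2.24% of each siCD36 bar and 7.99 to 9.68% of each siCont bar, while Slc2a1 fills most of every bar.

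Rhoq was the other gene of the 10 that passed the test. It encodes TC10, the small GTPase of the second insulin branch, and lies on chromosome 17 at 86963082 to 87000069, on the plus strand (ENSMUSG00000024143). Its levels were 54.0, 54.6 and 57.0 FPKM with siCD36, against 75.5, 77.9 and 82.7 FPKM with siCont. The groups were well apart and the samples within each were close together, with an SD of the log2 level of 0.0246 with siCD36 and 0.0309 with siCont. The mean with siCD36 was 55.2 ± 1.58 FPKM, against 78.7 ± 3.66 FPKM with siCont (SD, n = 3 each). Rhoq fell to a 1.46-fold lower level, a log2 fold change of -0.54 (95% interval -0.67 to -0.41, standard error 0.0536), with an adjusted p of 0.0120 in edgeR. Left without siCD36 sample 2 or without siCont sample 2, the adjusted p of Rhoq was 0.0715 or 0.0628 in edgeR. Rhoq overlaps Pigf on the other strand, which had 735 to 1032 counts per library, against 16894 to 21958 counts of Rhoq, and strand was not stated for the counting.

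Trip10 encodes CIP4, the scaffold protein that TC10 binds, from chromosome 17 at 57249455 to 57263665 on the plus strand (ENSMUSG00000019487). Its levels were 15.9, 15.5 and 15.2 FPKM with siCD36, against 17.7, 16.4 and 17.5 FPKM with siCont. All siCD36 samples lay below all siCont samples by a small margin, and Trip10 did not pass the test (log2 fold change -0.18, 95% interval -0.37 to 0.01, adjusted p = 0.215 in edgeR). Relative to its partner, Rhoq stood at 3.40, 3.52 and 3.76 times the FPKM of Trip10 with siCD36, against 4.26, 4.75 and 4.74 times with siCont.

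The Rab branch held no gene that passed the test. Tbc1d1, the GTPase-activating protein that predominates in C2C12 cells by these levels, lies on chromosome 5 at 64156305 to 64351486 on the plus strand (ENSMUSG00000029174). It had 24.2, 24.0 and 24.6 FPKM with siCD36, against 29.4, 27.7 and 25.2 FPKM with siCont. The siCD36 samples were nearly equal and all below the siCont samples, the nearest of which was siCont sample 3. The log2 fold change of Tbc1d1 was -0.21 (95% interval -0.43 to 0.0021, adjusted p = 0.200 in edgeR). Its paralog Tbc1d4 (AS160), on chromosome 14 at 101442360 to 101609033 on the minus strand (ENSMUSG00000033083), had 0.739, 0.927 and 1.08 FPKM with siCD36, against 0.755, 0.747 and 0.709 FPKM with siCont. With a mean of 0.827 FPKM over the 6 samples, Tbc1d4 was under the minimum of 1 FPKM and was not among the 11796 genes. In a fit of 17396 genes chosen by edgeR's own count filter instead, its log2 fold change was 0.26 (95% interval -0.12 to 0.64, adjusted p = 0.407), and the groups overlapped. Tbc1d4 was 0.0305, 0.0386 and 0.0440 of Tbc1d1 in FPKM with siCD36, against 0.0257, 0.0270 and 0.0281 with siCont, so that Tbc1d1 exceeded Tbc1d4 by a wide margin in every sample.

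Rab10 encodes the Rab protein that brings GLUT4 vesicles to the surface in fat cells, and it had the highest level of the 10 genes. It lies on chromosome 12 at 3247428 to 3309969 on the minus strand (ENSMUSG00000020671). Its levels were 107, 112 and 115 FPKM with siCD36, against 93.6, 96.2 and 90.4 FPKM with siCont. All siCD36 samples lay above all siCont samples. The log2 fold change was 0.22 (95% interval 0.07 to 0.38) with an adjusted p of 0.0944 in edgeR, short of the threshold, and DESeq2, a second count test, gave 0.0390. Rab10 overlaps Rab10os on the other strand, which had 624 to 870 counts, against 20324 to 32532 counts of Rab10. Rab10 stood at 4.43, 4.68 and 4.68 times Tbc1d1 in FPKM with siCD36, against 3.18, 3.47 and 3.59 times with siCont.

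**Figure D3:**
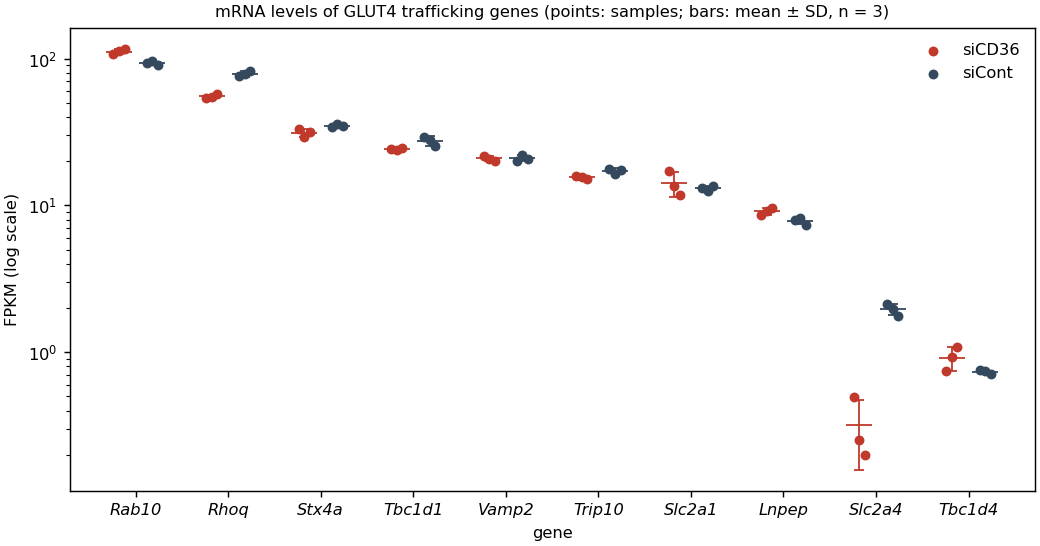
Level of each of the 10 genes in FPKM (logarithmic axis) in every sample, siCD36 left and siCont right of each gene, with the mean and SD of 3 samples. Genes run by their mean level from Rab10 at the left down to Slc2a4 and Tbc1d4, and the groups are farthest apart for Slc2a4.

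Neither fusion protein passed the test. Vamp2, the vesicle SNARE, on chromosome 11 at 69088490 to 69092384 on the plus strand (ENSMUSG00000020894), had 21.8, 20.8 and 20.1 FPKM with siCD36, against 20.1, 22.2 and 20.7 FPKM with siCont. The groups overlapped, and the 95% interval of its log2 fold change of -0.04 ran from -0.21 to 0.14 (adjusted p = 0.793 in edgeR). Stx4a, the SNARE of the plasma membrane, on chromosome 7 at 127824294 to 127849019 on the plus strand (ENSMUSG00000030805), had 33.1, 29.2 and 31.4 FPKM with siCD36, against 34.0, 35.6 and 34.5 FPKM with siCont. All its siCD36 samples were below all siCont samples, with a log2 fold change of -0.18 (95% interval -0.37 to -0.0014, adjusted p = 0.194 in edgeR). The ratio of Vamp2 to Stx4a in FPKM was 0.660, 0.715 and 0.639 with siCD36, against 0.591, 0.623 and 0.600 with siCont.

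Lnpep encodes IRAP, the aminopeptidase that travels in the same storage vesicles as GLUT4, from chromosome 17 at 17521410 to 17625050 on the minus strand (ENSMUSG00000023845). Its levels were 8.59, 9.18 and 9.65 FPKM with siCD36, against 7.997, 8.18 and 7.40 FPKM with siCont. All siCD36 samples lay above all siCont samples, the opposite order to Slc2a4. The log2 fold change of 0.18 (95% interval 0.0031 to 0.36) did not pass the test (adjusted p = 0.190 in edgeR). For each FPKM of Lnpep there were 0.0579, 0.0276 and 0.0207 FPKM of Slc2a4 with siCD36, against 0.265, 0.242 and 0.240 FPKM with siCont, a 7.74-fold lower ratio.

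In all, 9 of the 10 genes were tested, of which 2 fell, none rose and 7 were not called, beside 3.06% of all genes tested that fell in edgeR. At an unadjusted p under 0.05 stood 5 of the 9 (2 higher and 3 lower with siCD36), beside 25.4% of all genes tested. DESeq2 called 3 of the 9, Slc2a4, Rhoq and Rab10, beside 14.2% of all genes tested. The groups did not overlap in 7 of the 9, 5 with siCD36 lower and 2 with siCD36 higher, beside 32.4% of all genes tested. The median log2 fold change of the 9 was -0.18, beside 0.00 over all genes tested. Apart from Slc2a4 and Rhoq, the 7 log2 fold changes ran from -0.21 to 0.22. In both groups the order of levels was Rab10, Rhoq, Stx4a, Tbc1d1, Vamp2, Trip10, Slc2a1 and Lnpep, followed with siCD36 by Tbc1d4 and then Slc2a4 and with siCont by Slc2a4 and then Tbc1d4. Neighbours in this order had ranges that did not overlap, except Trip10 and Slc2a1 with siCD36.

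**Figure D4:**
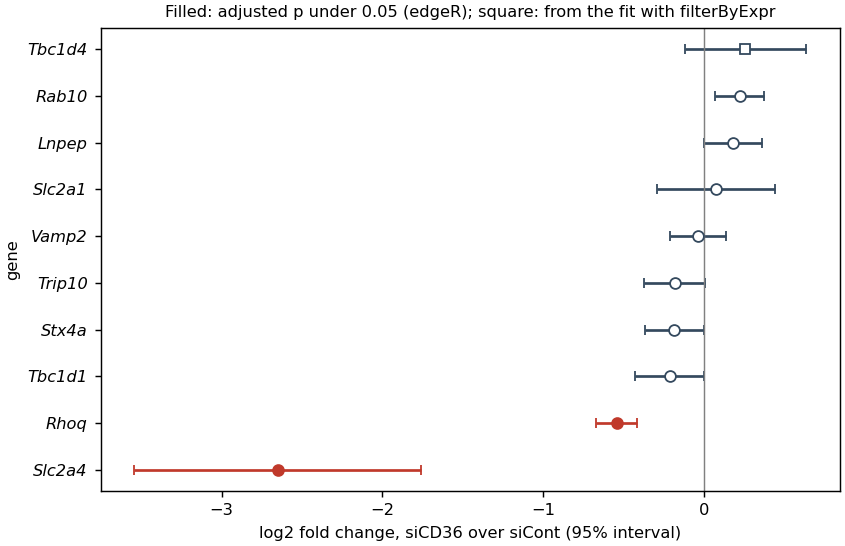
Log2 fold change (siCD36 over siCont) of each gene in edgeR with its 95% interval, filled where the adjusted p is under 0.05. Slc2a4 at -2.65 and Rhoq at -0.54 are filled, and the other genes lie between -0.21 and 0.26, with Tbc1d4 (square) taken from the fit with edgeR's own filter.

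Promoter sequences were read from RefSeq (build GRCm38.p6), 250 bases before to 50 after a start site, in which 8 of the 10 genes had 9 entries. Slc2a4 and Vamp2 had no entry, so the motif counts say nothing about their promoters. The sequences of the basal transporter Slc2a1 and of Rhoq, the called gene with an entry, are shown because Slc2a1 was not called and Rhoq fell, with GGGCGG on either strand (the letters bound by Sp1-type factors, read as CCGCCC on the other strand) and TATAAA in capitals. The Slc2a1 promoter is at chr4:119108495-119108794 and that of Rhoq at chr17:86962861-86963160, both on the plus strand.
Slc2a1: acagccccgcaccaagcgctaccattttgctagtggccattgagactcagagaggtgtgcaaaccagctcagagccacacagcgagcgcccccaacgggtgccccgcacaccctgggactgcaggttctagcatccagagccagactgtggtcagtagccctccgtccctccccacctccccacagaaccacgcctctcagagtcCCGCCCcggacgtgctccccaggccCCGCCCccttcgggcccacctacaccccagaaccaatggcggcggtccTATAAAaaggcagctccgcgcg
Rhoq: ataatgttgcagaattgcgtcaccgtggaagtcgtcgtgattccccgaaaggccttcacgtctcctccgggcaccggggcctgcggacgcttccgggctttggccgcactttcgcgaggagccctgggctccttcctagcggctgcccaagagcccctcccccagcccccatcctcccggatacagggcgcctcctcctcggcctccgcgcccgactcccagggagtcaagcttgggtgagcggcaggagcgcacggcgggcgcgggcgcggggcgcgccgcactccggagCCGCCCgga
The Slc2a1 sequence held GGGCGG in 2 places and TATAAA in 1, and the Rhoq sequence held GGGCGG in 1 place and no TATAAA. The TATAAA of Slc2a1 and the GGGCGG match of Rhoq both lie within the 50 bases after the start site of the entry. Over the 9 entries, GGGCGG stood in 8 and TATAAA in 1, beside 35.7% and 13.6% of 32851 mouse promoters of the same length. The E-box CANNTG, which myogenic factors such as MyoD recognise, stood in 4 of the 9 entries, beside 72.3% of all promoters, and the MEF2 motif in 0 of 9, beside 3.19%. The guanine and cytosine content was 65.3% for Slc2a1 and 71.0% for Rhoq, and ran from 55.7% (Tbc1d4) to 74.7% (Rab10) over the 9 entries. The shares over all promoters were not matched for this content, and 2 of the 9 entries belong to Tbc1d1. GGGCGG and TATAAA were chosen after seeing the data. These matches describe the letters in the window and were not tested against expression.

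The wider pathway was described by 7 lists with the 10 genes left out, in which 92 of 109 genes were tested, 3 fell and none rose (3.26%, beside 3.06% of all genes tested that fell), with a median log2 fold change of -0.01. At an unadjusted p under 0.05 stood 20 of the 92, 9 higher and 11 lower with siCD36, beside 25.4% of all genes tested. DESeq2 called 12 of the 92, 5 higher and 7 lower, beside 14.2% of all genes tested. The 3 genes that fell in edgeR were Myo1c, Nr4a1 and Hdac5, and none of them was called when any one library other than siCD36 sample 1 was left out. Myo1c, an unconventional myosin that tethers GLUT4 vesicles to cortical actin in fat cells, had 285, 252 and 244 CPM (counts scaled to library size) with siCD36, against 362, 373 and 365 CPM with siCont. Its groups were apart, and it fell by 0.49 on the log2 scale (adjusted p = 0.0252 in edgeR). It was 1 of 19 tested genes of the list of Rab GTPases of the vesicle and their partners, whose median was 0.02. Of the 19, 4 had an unadjusted p under 0.05, 2 higher (Rala and Ralb) and 2 lower (Myo1c and Rab5a) with siCD36. Rala came nearest to the threshold among those not called (log2 fold change 0.32, adjusted p = 0.0526 in edgeR).

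Among 15 tested transcription factors and cofactors known to act on Slc2a4, 2 fell and none rose in edgeR (13.3%, beside 3.06% of all genes tested that fell), with a median log2 fold change of -0.19. Of the 15, 4 had an unadjusted p under 0.05, 1 higher and 3 lower with siCD36, beside 25.4% of all genes tested. Nr4a1, an orphan nuclear receptor that raises glucose use genes in muscle, had 14.2, 8.86 and 8.67 CPM with siCD36, against 28.8, 25.7 and 21.7 CPM with siCont, and fell by 1.27 on the log2 scale (adjusted p = 0.0342 in edgeR). Hdac5, a deacetylase that represses MEF2 targets, had 64.6, 59.5 and 53.2 CPM with siCD36, against 91.4, 86.6 and 86.0 CPM with siCont, and fell by 0.57 (adjusted p = 0.0252 in edgeR). The groups did not overlap for either gene, one of which is known as an activator and the other as a repressor. The MEF2 factors themselves were not called, with log2 fold changes of -0.19 for Mef2a, -0.72 for Mef2c and -0.21 for Mef2d, and Myod1 was at 0.01. Mef2c had 7.71, 70.2 and 90.9 CPM with siCD36, against 88.4, 96.6 and 92.4 CPM with siCont, so that siCD36 sample 1 stood far below all other libraries. Sp1, a factor that binds GGGCGG, was low in the same library, with 5.02, 86.3 and 87.2 CPM with siCD36, against 78.2, 80.4 and 83.1 CPM with siCont (log2 fold change -0.44, adjusted p = 0.789 in edgeR). Ap1g1, an adaptor of vesicle sorting, had 22.7, 57.0 and 57.4 CPM with siCD36, against 64.9, 60.4 and 60.0 CPM with siCont. These 3 were the genes of the 92 with under 0.5 of the lowest other library in siCD36 sample 1, beside 59 of all 11796 genes tested, and 31 to 69 genes were so low in each of the other libraries. Klf15, a factor that raises Slc2a4 in muscle, had no counts.

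In the lists of vesicle cargo, SNAREs, the TC10 and actin branch and the exocyst, no gene passed the test in edgeR, and 4 of 16, 3 of 15, 3 of 16 and 1 of 9 of their genes had an unadjusted p under 0.05, beside 25.4% of all genes tested. Of 16 tested genes of vesicle cargo and sorting, Gga2, a sorting adaptor, came nearest (log2 fold change -0.85, adjusted p = 0.0507 in edgeR), followed by Usp25, a protease linked to the vesicle tether TUG (0.34, adjusted p = 0.0805), and Trarg1, a vesicle protein of fat and muscle, had no counts. Of 15 tested SNARE genes, Vti1b, a SNARE of endosomes (-0.36, adjusted p = 0.0680) and Snap23, the partner of syntaxin 4 at the plasma membrane (0.45, adjusted p = 0.0700), lay closest to the threshold with opposite signs. The 16 genes of the TC10 and actin branch and the 9 exocyst subunits had medians of 0.00 and 0.07, and their 2 smallest adjusted p-values in edgeR were 0.149 for Cblb and 0.163 for Flot2 in the TC10 list and 0.122 for Exoc8 and 0.277 for Exoc5 in the exocyst list.

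**Figure D5:**
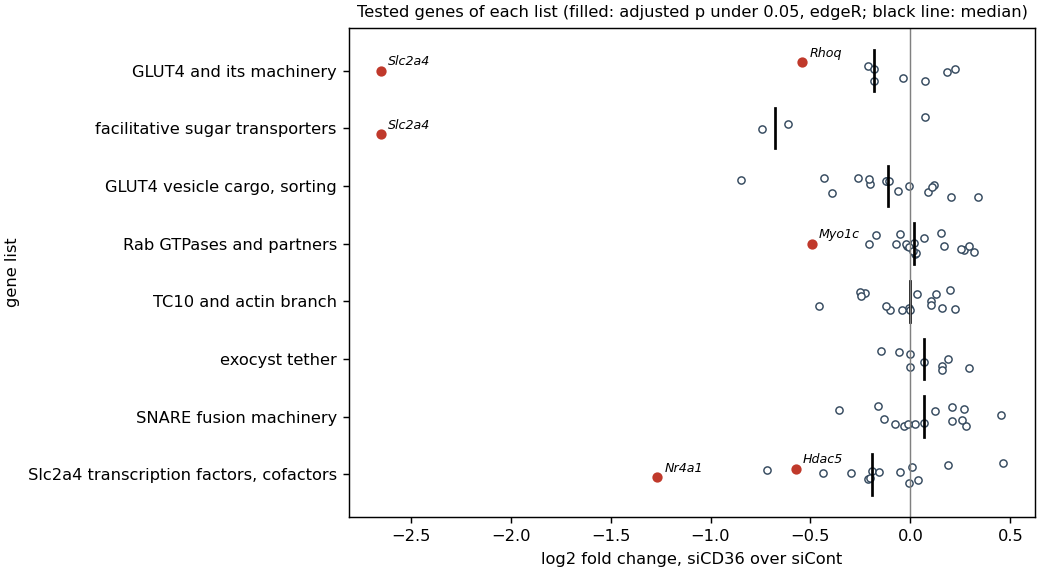
Log2 fold changes (siCD36 over siCont) of the tested genes of each list, filled where the edgeR adjusted p is under 0.05, with the median as a black line. Slc2a4 lies at -2.65, Nr4a1 at -1.27, Hdac5 at -0.57, Rhoq at -0.54 and Myo1c at -0.49, and the open points spread to both sides of 0.

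The genes whose pattern over the 6 samples was closest to that of Slc2a4 were ranked by the root mean square difference of centred log2 CPM among 6269 genes that reached a mean of 5 FPKM, leaving out the 10 genes and symbols that start with Gm or end in Rik, as a description with no test. The 5 nearest were Fabp3 (0.174), Mybpc2 (0.193), Bglap2 (0.367), Casq2 (0.493) and Myh7 (0.541). Fabp3, a fatty acid binding protein of heart and muscle, had 13.2, 9.39 and 6.25 CPM with siCD36, against 82.3, 70.7 and 58.1 CPM with siCont. Mybpc2, a myosin binding protein of fast fibres, had 13.2, 8.05 and 4.95 CPM with siCD36, against 50.5, 44.6 and 37.1 CPM with siCont. Slc2a4 itself had 1.99, 0.992 and 0.769 CPM with siCD36, against 8.84, 7.82 and 6.91 CPM with siCont. The same sample was highest within each group for Slc2a4, Fabp3 and Mybpc2, an order that choosing genes by likeness to Slc2a4 favours. Fabp3 overlaps Zcchc17 on the other strand, and Bglap2 has close paralogs with which it may share reads.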

How the data were processed

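RNA-seq of 6 C2C12 samples, 3 with siCD36 and 3 with siCont, was analysed, and groups were taken from the sample titles. According to their methods, the authors used HISAT for alignment of paired-end reads, StringTie for FPKM and edgeR for testing. In the deposited table, the raw counts per gene are whole numbers without normalization. The FPKM values were scaled by the authors to gene length and depth, and a gene with no reads has 1e-04 there. How reads were counted, with which annotation, strand setting and genome build, is not given in the sources used here. All 55450 gene identifiers were found in the GENCODE M21 annotation of GRCm38, 52506 of them (94.7%) at the same coordinates and strand, and of the 10 genes Slc2a4 and Tbc1d4 differed and keep the coordinates of the deposited table.

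The test used the 11796 genes whose mean over the 6 samples reached 1 FPKM, which held 99.1% to 99.3% of each library's counts. TMM scaling and the quasi-likelihood fit of edgeR 4.0.16 (R 4.3.3, glmQLFit, glmQLFTest) were applied with a condition term alone, and the Benjamini-Hochberg adjustment covered every gene tested. CPM are counts scaled to the TMM-adjusted library size. Standard errors were obtained from the fold change and the F statistic. Ratios of 2 genes were taken in FPKM and compared by exact permutation tests, 2-sided. Every pair of libraries differed by more than counting error (chi-square per gene of 74.4 or more), so that no library was a repeat of another's reads. This does not show that the samples came from separate cultures. Totals of 56907806 to 71878709 counts make counting error matter mainly for Slc2a4 and Tbc1d4.

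The 10 genes and the gene lists were chosen with earlier results of these data known, and the GGGCGG and TATAAA motifs after seeing the data. Named are the 10 genes, Cd36, called genes of each pathway list or else the 2 with the smallest adjusted p, and the 5 genes most like Slc2a4. The MEF2 genes, Myod1, Sp1, Ap1g1, Slc2a6, Slc2a8, Hdac4, Rala, Ralb and Rab5a were named after their values were seen. The same holds for called genes of the marker lists and genes without counts. DESeq2 1.42.0, limma 3.58.1 on log2(FPKM + 1), on log2(FPKM + 0.1) and with voom, robust edgeR, other scalings and filters, a block for the replicate number, and leaving out each library in turn were tried as alternatives. The edgeR script was tested on simulated data.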

Additional observations from a re-analysis of the deposited data

How the results depend on the processing

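The fall of Slc2a4 and of Rhoq kept its direction under every scaling, filter, test, block and left-out library in which it could be fitted. The log2 change of Slc2a4 ran from -2.77 to -1.17 over 11 alternatives that kept all libraries, the smallest on log2(FPKM + 1), with adjusted p-values of 5.29e-11 to 0.0485. It could not be fitted at a mean of at least 5 FPKM, where 1 of the 10 genes, Rhoq, was called. With each library left out, Slc2a4 ran from -3.15 to -2.40 and 0 to 2 of the 10 genes were called. Slc2a1 ran from -0.10 to 0.20 (-0.10 without siCD36 sample 1) and Vamp2 from -0.0849 to 0.0033 (0.0033 without siCD36 sample 3). The log2 ratio of Slc2a4 to Slc2a1 ran from -3.06 to -2.67 with each library left out and was -1.25 with a pseudocount of 1 FPKM.

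The number of genes called was 621, against 327 with no filter, 1677 with DESeq2, and 20 (without siCD36 sample 2) to 1081 (without siCD36 sample 1) with each library left out. The pathway lists held 3 called genes, against 12 with DESeq2 and 0 to 10 with each library left out. DESeq2 also called Rab10 (log2 fold change 0.22, adjusted p = 0.0390). A fit with 1 library fewer has fewer samples. With the replicate number as a block, 199 genes were called and Slc2a4 was at an adjusted p of 0.0485. Over all genes tested, the deviations of same-numbered samples had correlations of 0.134, -0.0497 and 0.00925. With so few samples per group, these correlations cannot decide whether the numbers pair the samples. Slc2a4 itself ran in the same replicate order in both groups.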
